A study of Mus musculus with 36 samples.

Results

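Secreted signals of the TGF-beta family and their extracellular antagonists were followed in mouse kidneys and tumors carrying the ASPSCR1-TFE3 gene fusion. Members were taken by gene symbol: the TGF-beta ligands Tgfb1, Tgfb2 and Tgfb3, the activin subunits Inhba and Inhbb, the activin antagonists Fst and Fstl3, the BMP ligands Bmp4 and Bmp7, and the BMP antagonist Grem1. All 10 were found among the 53379 genes of the deposited tables, and all 10 passed the filter on low counts in each comparison. RNA was sequenced from 36 libraries of formalin-fixed, paraffin-embedded mouse tissue. In every fusion group the transgene is kept silent by a floxed stop cassette (LSL) on 1 allele until Cre recombinase removes it, and the driver of Cre separates the models. In the fetal model Cre was driven by Pax8, a gene of the embryonic nephric lineage. It gave dysmorphic kidneys of 5 Pax8-Cre; ASPSCR1-TFE3 LSL/+ fetuses and kidneys of 3 control fetuses of matched age, labelled Pax8-Cre. The series' description also allows that some of these controls carried the silent fusion allele instead. In the adult model Cre was driven by Sglt2, a glucose transporter gene of the proximal tubule. Here 6 Sglt2-Cre; ASPSCR1-TFE3 LSL/+ mice yielded 11 libraries of kidney tumor, 3 of brain tumor, 4 of retro-orbital tumor and 4 of kidney that was not transformed, and control kidney came from 3 Sglt2-Cre mice without the fusion, with 6 libraries. Libraries of the same mouse and tissue were summed, so that n counts mice or fetuses, and groups are said to overlap or not by these sums. Ages were not given. By Y-linked transcripts, the 3 control mice of the adult model were all female, while 2 of the 6 fusion mice were male. How a tumor of the orbit or brain arose, and whether Cre was active there, is not stated in the labels.

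Ligands of this family act as dimers on pairs of type II and type I receptor kinases. TGF-beta and activin receptors phosphorylate SMAD2 and SMAD3, BMP receptors phosphorylate SMAD1, SMAD5 and SMAD9, and both kinds of SMAD enter the nucleus with SMAD4. TGF-beta is secreted in a latent complex that must be opened before it can bind, whereas activins and BMPs are held back by secreted traps such as follistatin (Fst), follistatin-like 3 (Fstl3) and gremlin 1 (Grem1). In the developing kidney Bmp7 maintains nephron progenitors, and Grem1 relieves the block that Bmp4 places on ureteric bud outgrowth. In the adult kidney TGF-beta is best known for its part in fibrosis.

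Promoters are shown for Tgfb2, which had the largest log2 fold change of the members between kidney tumors and control kidneys, for Bmp4, and for Tgfb1, since TFE3 and its relatives bind E-boxes with the core CACGTG. RefSeq (build GRCm38.p6) gave a promoter for 7 of the 10 members, with none here for Tgfb3, Fst and Bmp7. The 250 bases before each transcription start were searched on both strands for CACGTG, which reads the same on either strand, and the match is in capitals. Tgfb2 has its match 51 bases before the start and Bmp4 188 bases before it. Of these 7 members, 2 held the motif, and 6.02% of all 32851 promoters of the table did. Tgfb1, Inhba, Inhbb, Fstl3 and Grem1 have no such letters in this window. No member held the cAMP response element TGACGTCA, found in 1.55% of promoters, or an AP-1 site, TGAGTCA or TGACTCA, found in 4.46%. A match is a run of letters and was not tested for binding. The windows lie at chr1:186705990-186706239 on the minus strand for Tgfb2, chr14:46390670-46390919 on the minus strand for Bmp4 and chr7:25686752-25687001 on the plus strand for Tgfb1.
Tgfb2: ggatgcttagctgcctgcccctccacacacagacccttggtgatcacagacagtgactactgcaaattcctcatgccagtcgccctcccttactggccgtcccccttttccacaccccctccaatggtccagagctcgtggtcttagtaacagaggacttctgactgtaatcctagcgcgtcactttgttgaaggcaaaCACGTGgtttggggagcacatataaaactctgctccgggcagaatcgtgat
Bmp4: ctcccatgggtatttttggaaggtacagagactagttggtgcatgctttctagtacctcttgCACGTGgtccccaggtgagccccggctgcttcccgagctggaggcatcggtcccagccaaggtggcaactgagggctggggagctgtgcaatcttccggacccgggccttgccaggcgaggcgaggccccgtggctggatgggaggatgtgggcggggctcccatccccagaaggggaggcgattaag
Tgfb1: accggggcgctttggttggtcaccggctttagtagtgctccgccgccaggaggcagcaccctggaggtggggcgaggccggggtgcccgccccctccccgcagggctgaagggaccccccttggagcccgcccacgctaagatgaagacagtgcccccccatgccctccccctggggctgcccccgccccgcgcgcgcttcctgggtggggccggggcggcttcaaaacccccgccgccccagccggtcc

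Depth was 80205573 to 121415057 counts per library. The labels were checked against markers before any member was compared. Gpnmb, a target of MiT/TFE factors, ranged from 2826 to 7325 CPM (counts scaled to library size) in kidney tumors and from 1.54 to 2.47 CPM in control kidneys, and from 15.2 to 553 CPM in dysmorphic against 0.442 to 6.5 CPM in control fetal kidneys. The fetal libraries varied widely in renal markers and held muscle markers as well. The renal lineage factors Pax2 and Pax8 summed to 111, 57.5 and 3.73 CPM in control fetuses 1, 2 and 3, and to 6.14, 25.1, 4.64, 0.336 and 8.97 CPM in dysmorphic fetuses 1 to 5. Sums under 10 CPM were thus seen in control fetus 3 and in dysmorphic fetuses 1, 3, 4 and 5. Nephron progenitor markers (Six2, Cited1, Eya1 and Meox1) summed to 143, 91.25 and 8.92 CPM in the controls and to between 35.1 and 130 CPM in the dysmorphic kidneys. They summed to 27.45 to 704 CPM in brain tumors, where Pax2 and Pax8 summed to at most 1.33 CPM. The sum was thus not read as a count of progenitors. Proximal tubule markers summed to 1135 to 1386 CPM in the controls, fetus 3 included, and to 42.8 to 821 CPM in dysmorphic kidneys. Podocyte markers summed to 225 to 374 against 75 to 149 CPM, again without overlap. Their part in the differences below was not tested. Smooth muscle markers were highest in control fetus 3, at 2012 CPM for 4 genes.

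Markers of skeletal muscle and stroma moved with the fetal groups, and where this RNA came from was not tested. The 5 skeletal muscle markers (Acta1, Ckm, Mylpf, Myh3 and Tnnt3) summed to 2172, 2076 and 1885 CPM in the controls and to 8816, 4224, 9835, 11793 and 6942 CPM in dysmorphic fetuses 1 to 5. None of them was at 0 in any fetus, and each rose at an edgeR adjusted p of 0.035. No gene had an edgeR adjusted p under 0.05 with the prefix of the library title as a block. The same held without dysmorphic fetus 1, 3 or 4 or any control fetus. The 6 markers of stroma and fibroblasts summed to 2936 to 4061 CPM in controls and 5492 to 11929 CPM in dysmorphic kidneys. Cartilage markers summed to at most 15 CPM in controls, and to 5.34, 55.2, 836, 273 and 2076 CPM in dysmorphic fetuses 1 to 5. In bulk tissue, more cells of a type and more RNA per cell cannot be told apart, and the part of these tissues in the differences below was not tested.

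**Figure D1:**
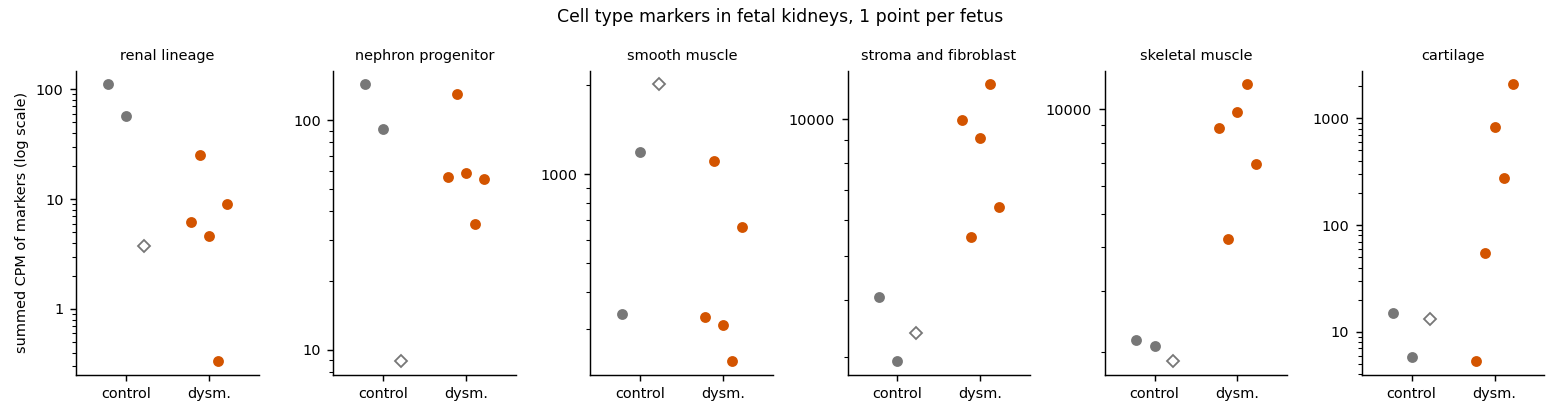
Summed CPM of cell type markers (log scale) in 3 control and 5 dysmorphic (dysm.) fetal kidneys, 1 point per fetus, with control fetus 3 as an open diamond. Skeletal muscle and stroma sums are higher in every dysmorphic kidney than in any control, and control fetus 3 has the lowest nephron progenitor sum, at 8.92 CPM.

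Dysmorphic fetal kidneys were compared to control fetal kidneys to ask whether the ligands or their traps differed when the fusion is switched on in the nephric lineage. Tgfb2, Tgfb3 and the activin trap Fst were higher in the dysmorphic kidneys, by 1.04 to 2.25 on the log2 scale. No member was called lower by edgeR. At an unadjusted p under 0.05 there was 1 lower member, and DESeq2 called 1 lower and 4 higher. Among all 22690 genes tested, 2.67% were called in either direction, 2.40% higher and 0.269% lower. The 3 calls were fragile: they were lost when title prefix or sex entered the model, in the joint fit, and without dysmorphic fetus 1, 3 or 4 or any control fetus, where the edgeR adjusted p reached 0.172 for Tgfb2 and Fst and 0.19 for Tgfb3. Tgfb3 was also lost with no filter on low counts.

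Tgfb2 encodes a ligand essential for normal kidney and heart development. The gene lies on chromosome 1 from 186622792 to 186705989 in GRCm38. Its level was 34.7, 43.5, 44.7, 34.2 and 32.3 CPM in dysmorphic fetuses 1 to 5 and 12.7, 11.0 and 15.6 CPM in control fetuses 1 to 3. Every dysmorphic kidney was above every control. The log2 fold change was 1.51 (standard error 0.19, edgeR adjusted p 0.035). Tgfb3, a ligand required for palate fusion and lung development, was 34.8, 23, 40, 35.8 and 31.6 CPM against 15.9, 12.7 and 18.9 CPM. Again the groups were apart, with dysmorphic fetus 2 nearest to the controls. The log2 fold change was 1.04 (standard error 0.21, edgeR adjusted p 0.0461).

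Tgfb1, the most widely expressed of the TGF-beta isoforms, was not called. It was 10.9, 8.68, 8.09, 11.5 and 7.71 CPM in dysmorphic and 8.65, 6.28 and 6.32 CPM in control kidneys. Control fetus 1 lay inside the dysmorphic range. The log2 difference was 0.39 (standard error 0.20, edgeR adjusted p 0.332).

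The activin subunits were low in fetal kidneys. Inhba, whose product forms activin A, was 3.88, 2.5, 5.9, 5.79 and 5.09 CPM in dysmorphic and 1.12, 1.9 and 3.39 CPM in control kidneys. The groups overlapped through dysmorphic fetus 2 and control fetus 3, and the log2 difference of 1.08 was not called (standard error 0.43, edgeR adjusted p 0.215). Inhbb, the subunit of activin B, was 1.42, 0.643, 1.14, 1.51 and 0.862 CPM against 0.459, 0.198 and 0.245 CPM. Its groups did not overlap, yet the difference of 1.87 on the log2 scale missed the threshold (standard error 0.42, edgeR adjusted p 0.0595).

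Fst had the largest log2 fold change of the members in fetal kidneys. Its product binds activins almost irreversibly and also traps myostatin. The gene lies on chromosome 13 from 114452290 to 114458951. Dysmorphic fetuses 1 to 5 had 17.4, 9.84, 14.8, 20.8 and 10.1 CPM, and the controls had 3.13, 2.99 and 2.91 CPM. The controls were nearly equal and every dysmorphic kidney was above 9 CPM. The log2 fold change was 2.25 (standard error 0.29, edgeR adjusted p 0.035). Fstl3, a related trap, went the other way in level, at 1.38, 1.33, 0.628, 1.38 and 1.22 CPM against 1.9, 1.27 and 1.78 CPM. Its groups overlapped and the log2 difference of -0.49 was not called (standard error 0.32, edgeR adjusted p 0.43).

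Of the BMP arm nothing was called by edgeR, while DESeq2 called Bmp4 lower (adjusted p 0.0226). Bmp4 was 14, 15.5, 15.2, 13.4 and 13.9 CPM in dysmorphic and 17.4, 21.1 and 28.2 CPM in control kidneys, a log2 difference of -0.65 (standard error 0.18, edgeR adjusted p 0.0949). All dysmorphic values were below all controls, and the highest of the controls was fetus 3. Bmp7 was 18.7, 28.6, 12.7, 20.8 and 21.2 CPM against 20, 18.6 and 20.4 CPM, with a log2 difference of 0.03 (standard error 0.24, edgeR adjusted p 0.959). The controls sat in the middle of the dysmorphic range. Grem1 was 0.147, 0.49, 0.533, 0.478 and 2.16 CPM against 0.246, 4.29 and 5.04 CPM. Control fetus 1 fell among the dysmorphic kidneys, and the log2 difference of -2.10 was not called (standard error 1.0, edgeR adjusted p 0.285).

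**Figure D2:**
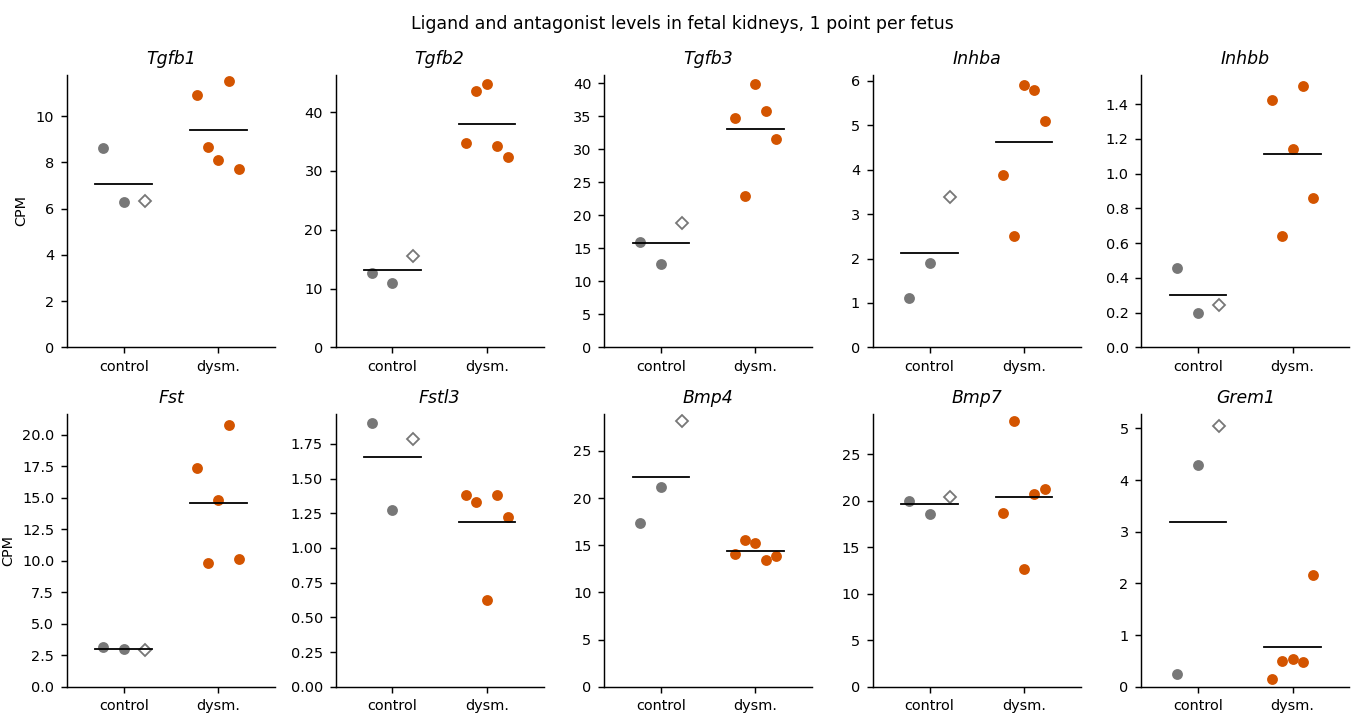
CPM of the 10 members in 3 control and 5 dysmorphic (dysm.) fetal kidneys, 1 point per fetus, with the group mean as a line and control fetus 3 as an open diamond. Tgfb2, Tgfb3, Inhbb and Fst are higher, and Bmp4 lower, in every dysmorphic kidney than in any control.

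Groups without overlap were seen for 5 of the 10 members, and for 14.4% of all genes tested. The median log2 difference was 0.71 over the members and -0.04 over all genes. Without control fetus 3, the log2 fold changes were 1.68 for Tgfb2, 1.20 for Tgfb3 and 2.25 for Fst, each with an edgeR adjusted p of 0.0995. Titles of the fetal libraries begin with H0248 or M1833, a label whose meaning is not given. With this prefix as a block, the edgeR adjusted p was 0.0505 for Tgfb2, 0.0546 for Tgfb3 and 0.0505 for Fst, while the log2 fold changes of Tgfb2 and Fst stayed at 1.51 and 2.25. Within prefix M1833, which has the lone control fetus 3, Tgfb2 was 34.2 and 32.3 CPM against 15.6 CPM. With sex as a covariate the edgeR adjusted p was 0.0573 for Tgfb2, 0.0708 for Tgfb3 and 0.0573 for Fst. In a joint fit of all groups it was 0.0821, 0.226 and 0.376 in the same order.

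Per kilobase of exon, which allows genes to be set beside each other, Bmp4 led the members in control fetal kidneys at 9.89 ± 2.45 CPM per kilobase (SD, n = 3). Bmp7 followed at 4.89 ± 0.239 and Tgfb3 at 4.68 ± 0.916 CPM per kilobase, which did not differ beyond their spread. Tgfb2 was at 2.26 ± 0.4, Tgfb1 at 1.4 ± 0.269 and the other 5 members were below 1 CPM per kilobase. In dysmorphic kidneys Tgfb3 came first at 9.76 ± 1.88 CPM per kilobase (SD, n = 5). Tgfb2 at 6.54 ± 0.996 and Bmp4 at 6.41 ± 0.402 were within their spread of each other. Bmp7 was at 5.07 ± 1.42 and Fst at 3.18 ± 1.02 CPM per kilobase.

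A list of 94 other genes of the pathway was read in the same fit, and 87 were tested. Of these, 4 were called higher and none lower by edgeR, or 4.6% beside 2.67% of all genes, against 9 lower at an unadjusted p under 0.05 and 2 lower by DESeq2. The 4 calls were as fragile as those of the members. They were lost with title prefix as a block and without dysmorphic fetus 1, 3 or 4 or any control fetus, where no gene was called. Mstn, which encodes myostatin, the activin-like brake on muscle growth that is made by skeletal muscle, had a log2 fold change of 2.80 (standard error 0.43, edgeR adjusted p 0.035) and ranged from 7.4 to 24.7 CPM in dysmorphic kidneys. The co-receptor Tgfbr3, also called betaglycan, which presents TGF-beta2 to its receptor, rose by 1.19 on the log2 scale (edgeR adjusted p 0.0441). Fbn1, a microfibril protein that anchors latent TGF-beta, rose by 1.10 (edgeR adjusted p 0.0395), and the collagen gene Col1a1, 1 of 8 TGF-beta and activin target genes, rose by 1.42 (edgeR adjusted p 0.0395). None of the 12 type I and type II receptors was called by edgeR, with 2 higher at an unadjusted p under 0.05 and 2 higher by DESeq2. None of the 12 SMAD and SMAD-inhibitor genes was called by edgeR either, with 4 lower at an unadjusted p under 0.05 and 2 lower by DESeq2. The median over the 87 genes was 0.07 on the log2 scale.

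In the adult model, kidney tumors were first compared to the kidneys of Sglt2-Cre mice without the fusion, and then to non-transformed kidney of fusion mice. These comparisons share the tumor samples. Tgfb1, Tgfb2 and Inhba were higher in kidney tumors in both, and no member was called lower by edgeR. Bmp4 was lower at an unadjusted p under 0.05 in both, and DESeq2 called it, as it did Fstl3, which was higher, in both. Against control kidneys 19.0% of the 23578 genes tested were called, 12.5% higher and 6.51% lower in tumors. Against non-transformed kidneys 17.1% of 21930 were called, 12.1% higher and 5.02% lower.

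Tgfb2 differed most. Kidney tumors of the 6 mice ranged from 21.3 to 109.7 CPM with a median of 49.1 CPM. Control kidneys had 3.03, 4.79 and 3.13 CPM, and non-transformed kidneys had 2.8, 10.6, 6.09 and 3.22 CPM. Every tumor value exceeded every kidney value, and the highest, 109.7 CPM, was that of mouse 4. The log2 fold change was 3.91 against control kidneys (standard error 0.51, edgeR adjusted p 0.00155) and 3.24 against non-transformed kidneys (standard error 0.54, edgeR adjusted p 0.00386). It was called with any mouse left out, and with mouse as a block over the 4 mice that gave both tissues.

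Tgfb1 (chromosome 7, 25687002 to 25705077) ranged from 14.1 to 41 CPM in kidney tumors, with a median of 25.2 CPM. Control kidneys had 7.39, 7.71 and 8.51 CPM and non-transformed kidneys 5.14, 7.88, 11.8 and 6.82 CPM. By mouse sums, tumors did not overlap with either kind of kidney, as was so for 18.2% of all genes against non-transformed kidneys, while a single kidney tumor of mouse 4, at 8.24 CPM, lay among the kidneys. The log2 fold changes were 1.80 (standard error 0.33, edgeR adjusted p 0.00789) and 1.75 (standard error 0.33, edgeR adjusted p 0.00704). With mouse as a block, the difference from non-transformed kidney was 1.67 and was no longer called (edgeR adjusted p 0.103).

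Inhba (chromosome 13, 16011851 to 16031621) varied widely among kidney tumors. It was 6.78, 6.4 and 7.1 CPM in mice 1 to 3 and 1.73, 1.16 and 2.62 CPM in mice 4 to 6. Control kidneys had 0.555, 0.379 and 0.779 CPM and non-transformed kidneys 0.471, 0.402, 1.05 and 1.67 CPM. Tumors were all above the control kidneys, and mouse 5 was the point of overlap with non-transformed kidney. The log2 fold changes were 2.89 (standard error 0.70, edgeR adjusted p 0.0224) and 2.22 (standard error 0.65, edgeR adjusted p 0.0419). Neither call was firm. The first was lost on leaving out any 1 of the 3 controls, with edgeR adjusted p from 0.0726 to 0.104, and the second with mouse as a block (2.01, edgeR adjusted p 0.304) and without any animal save the kidney tumor of mouse 4 or 5, at an edgeR adjusted p of up to 0.122.

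Inhbb, Fstl3 and Grem1 were higher and Bmp4 lower in mean, but did not pass the threshold with edgeR. DESeq2 called all 4 of them, and the joint fit called Inhbb and Bmp4. Against control kidneys the log2 differences were 1.43 for Inhbb (edgeR adjusted p 0.058), 1.31 for Fstl3 (0.0657), 2.14 for Grem1 (0.0584) and -1.10 for Bmp4 (0.0817). Inhbb ranged from 1.04 to 3.21 CPM in the sums of tumor mice, above the highest control sum of 0.907 CPM, but single tumors of mice 4 and 1, at 0.515 and 0.8 CPM, lay among the controls. Bmp4 ranged from 8.24 to 28.7 CPM in tumors and from 26.4 to 43.7 CPM in control kidneys, overlapping through mouse 5. Bmp7 had a log2 difference of 0.46 (edgeR adjusted p 0.443) and Tgfb3 of 0.72 (0.207). Fst was 10.1 CPM in control mouse 1 and 0.718 and 1.03 CPM in the others, so its tumor range of 0.12 to 16.4 CPM could not be told from them. Of the 10 members, 4 had tumors apart from control kidneys, and so did 29.8% of all genes. The member median was 1.37 on the log2 scale and the median over all genes 0.05.

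Non-transformed kidneys of fusion mice were compared to control kidneys, and no member was called by edgeR. Grem1 passed at an unadjusted p under 0.05 and was called by DESeq2. It was 0.668, 0.364, 1.0 and 0.404 CPM in mice 1, 3, 4 and 5 and 0.179, 0.253 and 0.12 CPM in controls. The groups were apart, as they were for 11.5% of all genes, at levels of about 1 CPM or less, with a log2 difference of 1.74 (standard error 0.48, edgeR adjusted p 0.251). In this comparison 0.00952% of 21019 genes were called. Tgfb1 differed by 0.02 and Bmp7 by 0.09 on the log2 scale. None of 82 tested pathway genes was called by edgeR, while 14 had an unadjusted p under 0.05, of which 5 were higher and 9 lower, and DESeq2 called 2 higher and 3 lower.

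Kidney tumor libraries of the same mouse differed to an extent that varied with the member. In the 5 mice with 2 kidney tumor libraries, the higher was 1.09 to 1.51 times the lower for Tgfb2 and 1.05 to 2.4 times for Tgfb1. Between the libraries of a control mouse it was up to 2.85 times for Tgfb2, more than in any pair of tumors, and up to 1.26 times for Tgfb1. For Bmp7 it was 1.05 to 11 times, with 2.26 and 24.9 CPM in the tumors of mouse 2. Inhbb differed most in mouse 4, at 0.515 and 2.8 CPM. Fst differed 1.94 to 5.48 times between tumors and 2.97 to 4.66 times between the libraries of the same control mouse. For Bmp7 control libraries of the same mouse differed by at most 1.15 times.

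**Figure D3:**
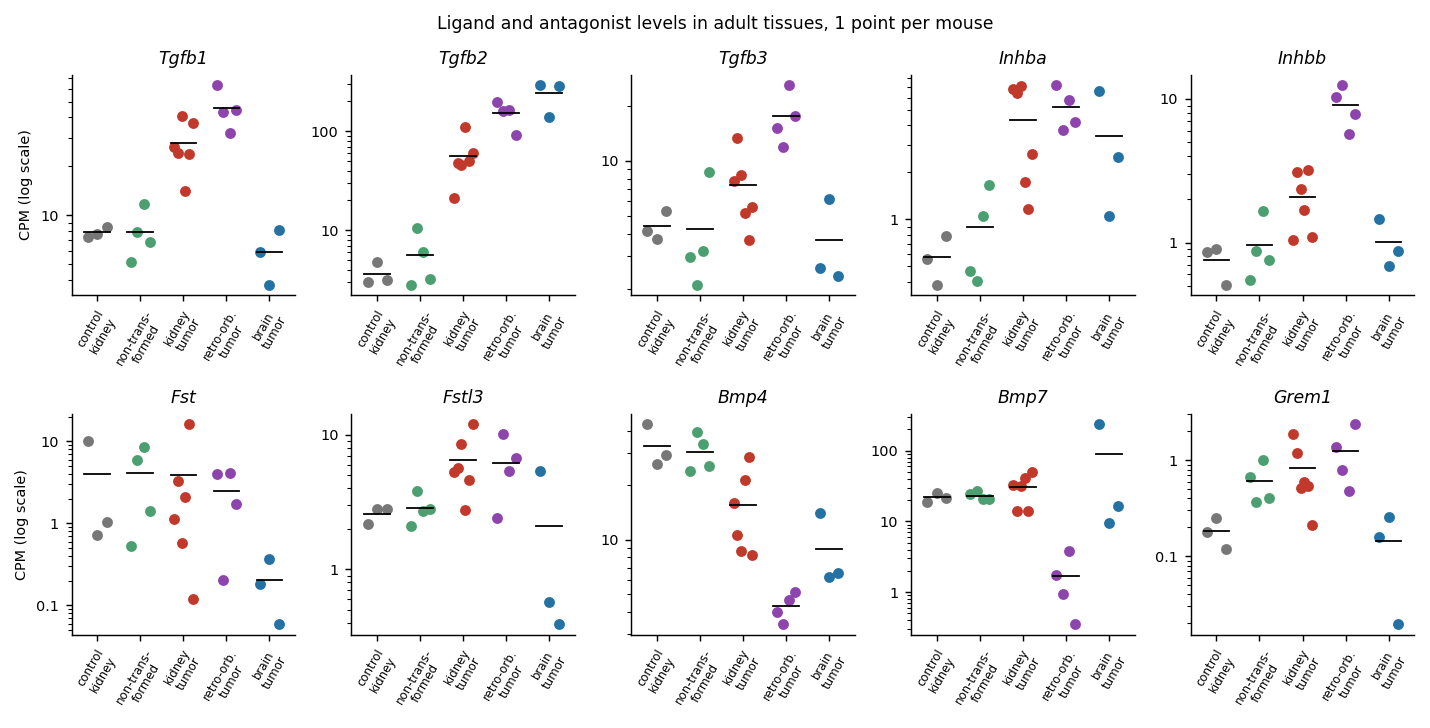
CPM of the 10 members (log scale) in control kidneys (3 mice), non-transformed kidneys (4), kidney tumors (6), retro-orbital (retro-orb.) tumors (4) and brain tumors (3), 1 point per mouse, with the group mean as a line. Tgfb2 is higher in every tumor than in any kidney, Inhbb is highest in retro-orbital tumors, and Bmp7 is lowest there.

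Tumors at other sites were compared to the kidney tumors of the same model. Retro-orbital tumors had more Tgfb2, Tgfb3 and Inhbb and less Bmp4 and Bmp7. Calls were made for 17.7% of 22136 genes, with 8.26% higher and 9.45% lower, and the groups did not overlap for 16.1%. With mouse as a block, which pairs the tissues, only Tgfb2 and Inhbb of these members were still called by edgeR. Other tissue markers moved with this contrast. The 4 endothelium markers summed to 742 to 1048 CPM in retro-orbital and 240.3 to 540 CPM in kidney tumors, and Pax2 and Pax8 to 0.459 to 5.15 against 66.3 to 95.5 CPM, with none of them at 0 in either group. The 6 stroma and fibroblast markers summed to 1899 to 3440 CPM in retro-orbital tumors, median 2745 CPM, and to 906 to 1909 CPM in kidney tumors, median 1366 CPM, and the proximal tubule markers had medians of 194 and 1469 CPM. Their part in the differences of the members was not tested.

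Inhbb (chromosome 1, 119415465 to 119422248) was 10.3, 12.6, 5.69 and 7.83 CPM in retro-orbital tumors of mice 2, 3, 5 and 6, against 1.04 to 3.21 CPM in kidney tumors, median 2.03 CPM. The groups were apart, with a log2 fold change of 2.11 (standard error 0.38, edgeR adjusted p 0.00589) that held with mouse as a block. Tgfb2 was 196.1, 158.5, 163.2 and 92.25 CPM in retro-orbital tumors. Only the kidney tumors of mouse 4, at 109.7 CPM, reached into this range. The log2 fold change was 1.43 (standard error 0.37, edgeR adjusted p 0.0241) and was still called with mouse as a block. It was lost without the retro-orbital tumor of mouse 2 (edgeR adjusted p 0.0802) or of mouse 3 (0.0593). Tgfb3 was 15.2, 11.9, 26.2 and 17.6 CPM against 3.67 to 13.4 CPM, overlapping through the kidney tumors of mouse 2. Its log2 fold change of 1.25 (standard error 0.35, edgeR adjusted p 0.0353) became 1.29 and was not called with mouse as a block (edgeR adjusted p 0.136). It was also lost without the retro-orbital tumor of mouse 2, 5 or 6 or the kidney tumor of mouse 4 or 6, at up to 0.08.

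Bmp7 (chromosome 2, 172868012 to 172940321) had the largest difference of the members between retro-orbital and kidney tumors. It was 1.72, 0.927, 3.8 and 0.349 CPM in retro-orbital tumors, and 14.1 to 50.5 CPM in kidney tumors, median 32.2 CPM. The mouse sums were apart, but a single kidney tumor of mouse 2, at 2.26 CPM, lay inside the retro-orbital range. Bmp7 fell by 4.19 on the log2 scale (standard error 0.72, edgeR adjusted p 0.00466). With mouse as a block the edgeR adjusted p was 0.0575 at a difference of -4.18. Bmp4 (chromosome 14, 46383520 to 46390669) was 4.01, 3.4, 4.66 and 5.13 CPM in retro-orbital and 8.24 to 28.7 CPM in kidney tumors. The mouse sums were apart, though a single kidney tumor of mouse 3 had 4.37 CPM, and Bmp4 fell by 1.89 (standard error 0.39, edgeR adjusted p 0.01). With mouse as a block the difference was -1.49 and the edgeR adjusted p 0.0587.

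Brain tumors differed from kidney tumors in opposite directions for the TGF-beta isoforms. Tgfb2 was 295.8, 137.7 and 287.9 CPM in the brain tumors of mice 1, 2 and 4, above every kidney tumor, with a log2 fold change of 2.15 (standard error 0.43, edgeR adjusted p 0.0224). Tgfb1 was 5.95, 3.72 and 8.09 CPM, below every kidney tumor, and fell by 2.18 on the log2 scale (standard error 0.40, edgeR adjusted p 0.0181). Both were called with any mouse left out. With mouse as a block over 3 pairs neither was called, at differences of 2.21 and -1.89 and edgeR adjusted p of 0.327 and 0.328, and no gene of the whole table was called by edgeR in that fit, where 3034 had an unadjusted p under 0.05. In the main comparison calls were made for 8.74% of 23391 genes, with 4.54% higher and 4.20% lower, and the groups did not overlap for 15.0%. Bmp7 was 239.5, 9.52 and 16.6 CPM, so its mean rested on mouse 1, and without that mouse the log2 difference turned from 1.57 to -1.21. Fst was at most 0.373 CPM in brain tumors, with a log2 difference of -4.25 that was not called (standard error 1.6, edgeR adjusted p 0.121). DESeq2 and the joint fit called it, and DESeq2 also called Grem1 lower.

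Against retro-orbital tumors, with which they share mouse 2 alone, brain tumors had less Tgfb1 and Inhbb. Tissue markers moved with this contrast too. Brain markers summed to 125.2 to 987 CPM in brain and 13.8 to 41.8 CPM in retro-orbital tumors and podocyte markers to 40.5 to 49.5 against 142.6 to 185 CPM. The endothelium and stroma medians were 231.5 and 683 CPM against 1015 and 2745 CPM, but both sums overlapped. Endothelium ranged from 160.4 to 1160 CPM in brain and 742 to 1048 CPM in retro-orbital tumors, and stroma from 494 to 2277 and 1899 to 3440 CPM. Whether these sums stand for the cell types they are named after, and their part in the differences, was not tested. Tgfb1 was 63.7, 43.4, 32.1 and 44.3 CPM in retro-orbital tumors and fell by 2.98 on the log2 scale in brain tumors (standard error 0.38, edgeR adjusted p 0.0215). Inhbb was 1.46, 0.686 and 0.876 CPM in brain tumors and fell by 3.2 (standard error 0.45, edgeR adjusted p 0.0286). The groups did not overlap for either, nor for 18.9% of all genes. With all animals, 1.73% of 21037 genes were called, 0.395% higher and 1.34% lower. Both member calls were lost without retro-orbital mouse 2, 3 or 6, where the edgeR adjusted p reached 0.0936 for Tgfb1 and 0.105 for Inhbb. Bmp7, at 239.5, 9.52 and 16.6 CPM in brain and at most 3.8 CPM in retro-orbital tumors, was apart by 5.67 on the log2 scale but not called (standard error 1.38, edgeR adjusted p 0.0849). Here too its brain mean rested on mouse 1. Other fits called more members here. DESeq2 called Tgfb3, Fst and Grem1 lower as well and Bmp4 higher, and the joint fit called Tgfb3 and Grem1 lower and Bmp4 and Bmp7 higher. Tgfb2 did not pass the test between these sites, at a log2 difference of 0.63 (standard error 0.34, edgeR adjusted p 0.343).

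**Figure D4:**
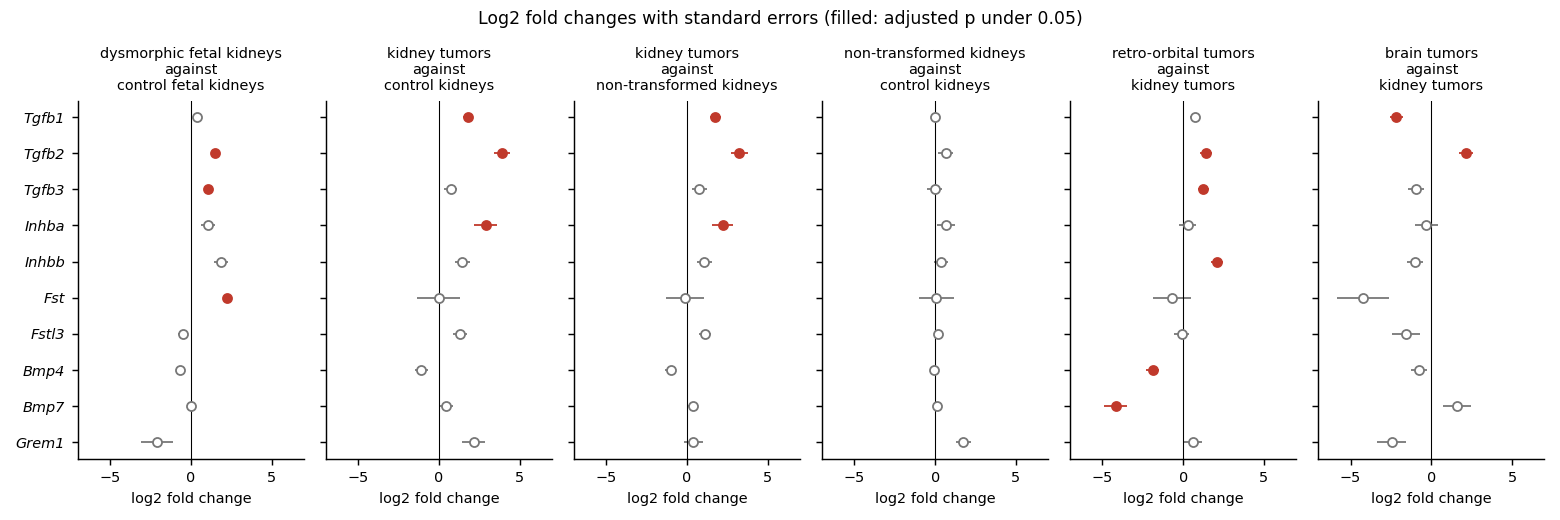
Log2 fold changes with standard errors of the 10 members in 6 comparisons, with filled points where the edgeR adjusted p was under 0.05. Tgfb2 is filled and to the right of 0 in 5 of the 6 panels, and only Bmp4, Bmp7 and Tgfb1 are filled to the left of 0.

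Over the adult groups, Tgfb2 means went from 3.65 ± 0.988 CPM in control kidneys (SD, n = 3) and 5.67 ± 3.59 CPM in non-transformed kidneys (n = 4) to 55.9 ± 29.3 CPM in kidney tumors (n = 6), 152.5 ± 43.5 CPM in retro-orbital tumors (n = 4) and 240.5 ± 89.1 CPM in brain tumors (n = 3). Of the neighbours in this order, the kidney groups did not differ by the test, nor did the retro-orbital and brain tumors. Tgfb1 was ordered otherwise, with the highest mean of 45.9 ± 13.1 CPM in retro-orbital and the lowest of 5.92 ± 2.19 CPM in brain tumors. Its levels in brain tumors and both kidney groups were within their spread of each other. Bmp4 was highest in control kidneys at 33.1 ± 9.3 CPM and non-transformed kidneys at 30.75 ± 7.22 CPM, which did not differ, and lowest in retro-orbital tumors at 4.3 ± 0.754 CPM.

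The make-up of the TGF-beta ligand RNA, as shares of the summed CPM per kilobase, moved with these levels and is given as a description. In control kidneys Tgfb1 made up 44.8% ± 0.741, Tgfb3 37.1% ± 4.84 and Tgfb2 18.2% ± 5.11 (SD, n = 3). Tgfb2 made up 53.2% ± 16.7 in kidney tumors (n = 6), 63.9% ± 7.21 in retro-orbital tumors (n = 4) and 94.1% ± 3.32 in brain tumors (n = 3). The kidney tumors of mouse 4 had 81.4%. In fetal kidneys Tgfb3 was the main isoform in both groups, at 55.9% ± 2.36 of control (n = 3) and 53.4% ± 6.2 of dysmorphic kidneys (n = 5). The summed level was 3.49 ± 0.294 CPM per kilobase in control kidneys, 17.3 ± 4.15 in kidney tumors, 40.7 ± 8.69 in retro-orbital and 43.8 ± 15.1 in brain tumors.

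**Figure D5:**
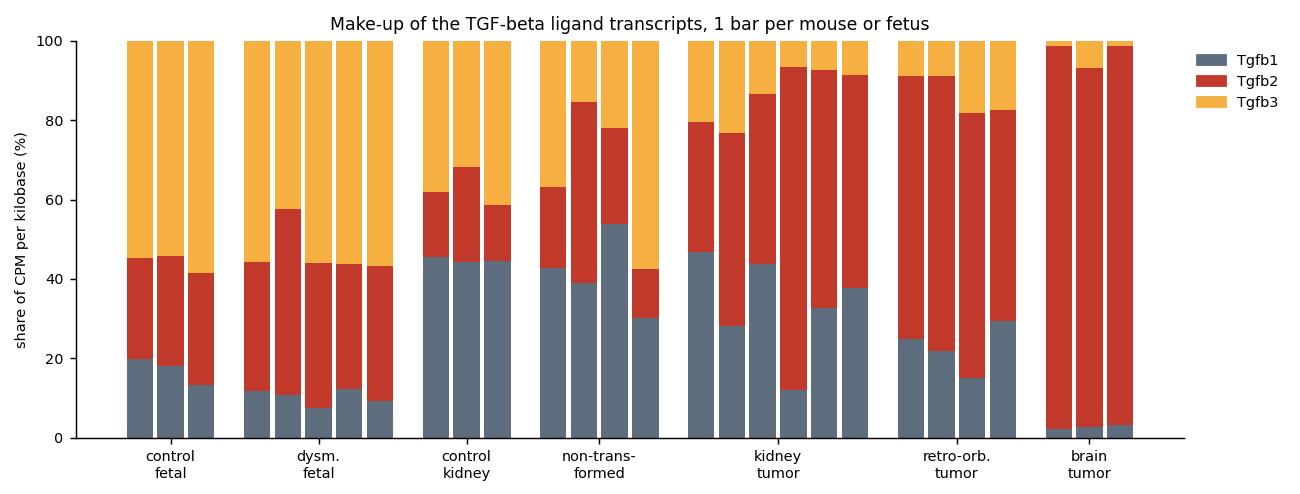
Share (%) of Tgfb1, Tgfb2 and Tgfb3 in their summed CPM per kilobase of exon, 1 bar per mouse or fetus, in order of its number within each group. Tgfb2 is over 90% in all 3 brain tumors and Tgfb3 is the main isoform in fetal kidneys, save in dysmorphic fetus 2, where Tgfb2 has 46.9%.

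Activin subunits and their traps were set side by side in the same way. The ratio of the summed activin subunits to the summed traps, both in CPM per kilobase, was 0.16 ± 0.0592 in control kidneys (SD, n = 3), 0.197 ± 0.0838 in non-transformed kidneys (n = 4), 0.383 ± 0.187 in kidney tumors (n = 6), 1.08 ± 0.565 in retro-orbital tumors (n = 4) and 1.70 ± 1.54 in brain tumors (n = 3). The kidney tumors of mice 5 and 6, at 0.171 and 0.134, lay inside the control range of 0.0939 to 0.209, and brain tumors, at 0.618, 1.03 and 3.47 in mice 1, 2 and 4, overlapped with retro-orbital tumors, at 0.73 to 1.92. In fetal kidneys it was 0.306 ± 0.119 in controls and 0.276 ± 0.076 in dysmorphic kidneys, which overlapped.

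Other pathway genes were read in the adult fits by role. Against control kidneys 85 of the 94 were tested, with 19 higher and 7 lower in kidney tumors, or 30.6% beside 19.0% of all genes. TGF-beta and activin target genes had 5 of 8 higher and none lower by edgeR, and likewise none lower at an unadjusted p under 0.05 or by DESeq2. Among the higher genes were Timp1, an inhibitor of matrix proteases (log2 fold change 6.18, edgeR adjusted p 0.000517), Col1a1 (3.46, 0.00436), Pmepa1, a feedback inhibitor of the pathway (1.02, 0.0242), and Junb (1.07, 0.0369). Of 8 BMP target genes Id1 was lower, with a log2 fold change of -1.41 (edgeR adjusted p 0.0404), and none was higher by edgeR, at an unadjusted p under 0.05 or by DESeq2. Among other ligands Gdf15, a stress-induced hormone, rose by 4.51 (edgeR adjusted p 0.00452) and Gdf11 by 3.58 (0.000758), while Bmp8a had a log2 fold change of -2.68 (0.0395). Of the latent complex, Ltbp2 rose by 5.97 (0.00362), Fbn1 by 2.46 (0.00781) and Ltbp3 by 1.35 (0.0495), and Itgb8, part of an integrin that activates latent TGF-beta, had a change of -1.08 (0.0219). Tgfbr2, the type II TGF-beta receptor, rose by 0.63 (0.0267), and Acvr2b (-1.58, 0.0261) and Acvr1b (-0.56, 0.0286), receptors of activins, were lower.

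Stroma moved with the same contrast. The 6 stroma and fibroblast markers summed to 906 to 1909 CPM in kidney tumors, 347 to 618 CPM in control kidneys and 422 to 822 CPM in non-transformed kidneys, and none was at 0. Proximal tubule markers summed to 631 to 7330 CPM in tumors and to 10334 to 10731 CPM in control kidneys. Their part in the differences of ligands was not tested.

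At other sites, retro-orbital tumors had 12 pathway genes higher and 6 lower than kidney tumors had, of 84 tested, which is 21.4% beside 17.7% of all genes. Hey1, a target of BMP and Notch signals, rose by 3.21 (edgeR adjusted p 0.000822) and Msx1 by 3.2 (0.00432), while Id2 had a change of -0.78 (0.0414). Bmp2 rose by 1.43 (0.0109), Bmp5 by 2.39 (0.0298) and Gdf6 by 3.13 (0.00618). Itgb8 was lower, with a change of -3.48 (0.00708). In brain against kidney tumors the balance was 2 higher and 11 lower of 85, or 15.3% beside 8.74% of all genes. The lower genes included both TGF-beta receptors, Tgfbr1 (-1.89, edgeR adjusted p 0.0262) and Tgfbr2 (-1.10, 0.0436), the latent complex genes Ltbp2, Ltbp4, Lrrc32 and Emilin1, and the targets Ccn2 (-2.25, 0.0121), Col1a1 (-2.90, 0.0197) and Itgb5 (-1.84, 0.0356). Stroma markers summed to 494, 683 and 2277 CPM in brain tumors. Pax2 and Pax8 summed to 0.371 to 1.33 CPM in brain tumors. Brain markers summed to 125.2 to 987 CPM in brain tumors and to at most 66.5 CPM in kidney tumors. None of the 5 brain markers was at 0 there, and their part was not tested.

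Whether the fusion had a different effect in the models was tested as the kidney tumor effect less the fetal effect. The models also differ in age, in tissue state and in the driver of Cre, which cannot be told apart from each other. Tgfb1 had a difference of 1.45 on the log2 scale (standard error 0.39, edgeR adjusted p 0.0334), with effects of 1.80 in kidney tumors and 0.39 in fetal kidneys. This call was lost without any control animal of either model, the kidney tumor of mouse 3 or 6 or dysmorphic fetus 3, at an edgeR adjusted p of up to 0.0919. Tgfb2 had a difference of 2.43 (standard error 0.49, edgeR adjusted p 0.00683), with effects of 3.91 and 1.51. Among 24444 genes 8.94% were called, 6.87% with a positive and 2.07% with a negative difference. DESeq2 called Fstl3 and Grem1 as well, both with a positive difference. The difference for Fst was -2.29 and not called (standard error 1.54, edgeR adjusted p 0.386), nor was that for Tgfb3, at -0.27 (standard error 0.47, edgeR adjusted p 0.776).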

How the data were processed

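Total RNA of formalin-fixed, paraffin-embedded mouse tissue went into stranded libraries, and ribosomal RNA was not removed, per the labels. The authors deposited raw counts per gene in tables with 28 and 8 libraries, with no normalization. The submitters' processing notes name STAR 2.5.2a, Bowtie2, FastQC and MultiQC and the build GRCm38 (mm10). The counter is not given in the sources used here. Of 53379 gene identifiers, 53274 matched GENCODE M21, from which symbols, coordinates and exon lengths were taken. Between 79.04% and 84.33% of counts from 1 to 20 were even in a library, an excess that counting both mates of a pair would give, so halved counts were also tested. Paralogs may share reads. Strand use in counting is not stated.

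Counts of libraries from the same mouse and tissue were summed. Such libraries were checked and were not duplicates. The fit of a comparison held only the groups compared and used edgeR 4.0.16 (R 4.3.3; TMM, filterByExpr, quasi-likelihood F-test), and Benjamini-Hochberg adjusted p-values under 0.05 over all genes were called. Standard errors were taken as the ratio of log2 fold change to root F. CPM are scaled by TMM factors over all samples, and CPM per kilobase divides by exon length. For the E-box search, promoters came from RefSeq (GRCm38.p6). The code was tested on simulated data. The alternatives were RLE and upper quartile factors, DESeq2 1.42.0, no filter, halved counts and a joint fit of all groups. Others were every library as its own sample, mouse or title prefix as a block, and leaving out each mouse or fetus. Sex, read from Y-linked transcripts, entered the fetal comparison alone, so its part in the adult differences was not tested. The members, lists, markers and tests were chosen with earlier results of these data known. All members are named. Of the 94 pathway genes, those called, or in a role of fewer than 6 genes, could be named.

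Tissues of the same animal pair the tumor and kidney samples by design. Deviations from the group means of same-mouse tissues had correlations over genes of -0.02 to 0.16 between non-transformed kidneys and kidney tumors, 0.23 to 0.31 for retro-orbital and kidney tumors, and -0.06 for brain and kidney tumors. The labels do not say whether fetuses shared a dam, and p-values measure the spread between these animals. Counts without molecular identifiers are not independent molecules. The paper at hand describes other TFE3 fusion mice and was used for style alone.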

Additional observations from a re-analysis of the deposited data

Results flagged for a closer look

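Of 40 sets of a member in a group of 4 to 6 animals, 4 held an animal far from the others by Dixon's test, where chance alone gives about 2. Tgfb3 in the non-transformed kidney of mouse 5 was 8.73 CPM, next to 3.21 CPM. Fst in the kidney tumor of mouse 5 was 16.4 CPM, next to 3.29 CPM. In dysmorphic kidneys, Fstl3 of fetus 3 was 0.628 CPM, next to 1.22 CPM, and Grem1 of fetus 5 was 2.16 CPM, next to 0.533 CPM.

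Between the adult and the fetal model the log2 difference from controls differed, by the test of the difference itself, for Tgfb1, at 1.45, and for Tgfb2, at 2.43. Tgfb2 means were 3.65 CPM in control kidneys and 13.1 CPM in control fetal kidneys, and 55.9 CPM in kidney tumors and 37.9 CPM in dysmorphic kidneys. Age, tissue state and the driver of Cre differ with the model and cannot be told apart. For Tgfb2 the difference between the models was called with each animal left out. For Tgfb1 the call was lost with no filter on low counts (edgeR adjusted p 0.0521) and without any of 9 of the 17 animals.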

How the results depend on the processing

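Across 58 fits with another setting, 528 of 580 member values kept their direction and side of the threshold, 18 lost their call, 32 gained one and 2 turned in direction, both with upper quartile factors and near 0: Tgfb3 in non-transformed against control kidneys from -0.03 to 0.0078, and Fstl3 in retro-orbital against kidney tumors from -0.10 to 0.0088. Across 77 fits that each left out an animal, 666 of 770 values kept both, 51 lost their call, 16 gained one and 37 turned in direction. The cause was not tested.

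Counts of genes called moved more than 1.5 times as follows. With DESeq2 they were 2726 for fetal kidneys, 7070 and 6004 for kidney tumors against control and non-transformed kidneys, 493 for non-transformed against control kidneys, 5975 for retro-orbital and 5104 for brain against kidney tumors, 3080 for brain against retro-orbital tumors and 3712 for the difference between the models. The fetal count of 605 was 271 in the joint fit, 5 with sex as a covariate, and 0 with title prefix as a replicate block, where 5654 genes had an unadjusted p under 0.05. With mouse as a replicate block, which pairs the tissues, counts were 786 for kidney tumors against non-transformed kidneys, 2519 for retro-orbital and 0 for brain against kidney tumors. No paired analysis was possible for brain against retro-orbital tumors because 1 mouse gave both. With every library as its own sample they were 9405 for kidney tumors against control kidneys, 227 for non-transformed against control kidneys and 4052 for brain against kidney tumors. The joint fit gave 4 for non-transformed against control kidneys, 6548 for brain against kidney tumors and 3816 for brain against retro-orbital tumors, and no filter gave 6 for the first of these.

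Leaving out each animal in turn gave counts of 0 to 1247 for fetal kidneys, with 0 without dysmorphic fetus 1, 3 or 4 or any control fetus. Counts were 1163 to 5856 for kidney tumors against control kidneys, 1712 to 5522 against non-transformed kidneys, 0 to 10 for non-transformed against control kidneys, 2095 to 4089 for retro-orbital and 857 to 2075 for brain against kidney tumors, 1 to 1316 for brain against retro-orbital tumors and 956 to 2954 for the difference between the models.

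Values that turned in direction in these fits ranged as follows: fetal Bmp7 from -0.14 to 0.17; kidney tumors against control kidneys, Fst from -1.45 to 2.15; against non-transformed kidneys, Fst from -1.57 to 0.56 and Grem1 from -0.0535 to 0.75; non-transformed against control kidneys, Tgfb1 from -0.24 to 0.19, Tgfb3 from -0.66 to 0.19, Inhbb from -0.0521 to 0.55, Fst from -0.58 to 2.25, Fstl3 from -0.0093 to 0.28, Bmp4 from -0.24 to 0.15 and Bmp7 from -0.0101 to 0.20; retro-orbital against kidney tumors, Fst from -1.03 to 0.82 and Fstl3 from -0.40 to 0.23; brain against kidney tumors, Inhba from -1.26 to 0.12 and Bmp7 from -1.21 to 2.09. None of these was called with all animals.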

Other observations

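The genes whose log2(CPM + 0.5) was most like a member's over the 20 mouse and tissue sums of the adult model were read among 15663 genes, as a description without a test, since tissues of a mouse share an animal and the groups differ in level. For Tgfb1 they were Col15a1 (Pearson r 0.974), a basement membrane collagen, and Pxdn (0.968), which crosslinks collagen IV. For Tgfb2 they were Rad54l (0.979), a DNA repair gene, and Dpf1 (0.977). Inhbb was most like 1600015I10Rik (0.96) and Nos2 (0.953), Bmp4 like Golph3 (0.957) and Slc33a1 (0.955), Inhba like Ammecr1 (0.938) and Cep192 (0.932), and Bmp7 like Pcgf6 (0.913) and Prdx6 (0.899). Tgfb3 was most like Myom1 (0.897) and Olfml2b (0.866), Fstl3 like Mvd (0.882) and Cyba (0.863), and Fst like Bst1 (0.815) and Klf16 (0.787). Grem1 had a mean under 1 CPM and was not read.

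The pigment cell markers (Mlana, Dct, Tyr and Sox10) summed to 22.9 to 45.5 CPM in dysmorphic and 5.41 to 5.96 CPM in control fetal kidneys, with 1 marker at 0 in a control. In brain tumors the sum ranged from 0.341 to 863 CPM and in kidney tumors from 0.523 to 220.7 CPM, where the median was 0.761 CPM. Retro-orbital tumors had 0.323 to 104.1 CPM, non-transformed kidneys 0.527 to 37.9 CPM and control kidneys at most 0.395 CPM. Up to 2 of these markers were at 0 in a kidney tumor, a retro-orbital tumor or a non-transformed kidney. Whether pigment cells or other cells gave this RNA, and their part in the ligand levels, was not tested.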
